A study of Mus musculus with 2 samples.

Results

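The 8 mouse genes S100a4, S100a6, S100a10, S100a11, Lgals1, Anxa2, Vim and Crip1 were measured in single bone marrow cells. They are 8 of the 32285 genes counted. They were grouped as S100 and cytoskeletal genes of memory T cells and were chosen by their levels and shares of positive cells in these same libraries. Levels across the cell classes are therefore a description, with no test. Cells had been sorted as natural killer progenitors (NKP) from bone marrow, by a gate on CD122-positive cells (CD122 is the product of Il2rb) that lacked NK1.1, Ncr1, c-kit, Sca-1 and lineage markers. One library came from Irf4-/- mice (Irf4 is a transcription factor of activated lymphocytes and plasma cells), and one from wild-type (WT) C57BL/6 mice. The study compares these genotypes. Age, sex, the number of mice behind each library and the deleted part of Irf4 are not given in the sources used here, and no promoter or Cre is named. Each genotype had 1 library and so no replicate, no p-value is given, and the 95% intervals below cover counting error only, not differences between mice.

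After filtering, 7955 cells of the library labelled Irf4-/- and 12367 of the library labelled WT remained, with medians of 9540 unique molecular identifiers (UMIs, tags that count each captured transcript once) under Irf4-/- and 7125 under WT. Irf4 itself had 803 UMIs under the Irf4-/- label and 287 under the WT label, or 9.77 [9.11, 10.5] CPM (UMIs per 1000000 UMIs of the same cells) under Irf4-/- and 3.04 [2.70, 3.41] CPM under WT. A 3' count outside a deleted part checks nothing, and these counts go against the label, so each group is called here by its label and each direction is that of the labels. A CD3 transcript, which marks T cells, was found in 86.8% of kept cells labelled Irf4-/- and 92.7% labelled WT, which goes against a progenitor of natural killer cells as the main cell type. Il2rb had 346 CPM under Irf4-/- and 276 CPM under WT. The natural killer gene Ncr1 had 65 UMIs in all under Irf4-/- and 19 under WT. The libraries had 27 cell barcodes in common.

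Levels were summed over 5 classes of cells set by UMIs of a few genes. Ccr2-positive Cd8b1 cells (T cells with a UMI of Cd8b1, a CD8 chain, and of Ccr2, a chemokine receptor of memory and effector cells, and none of Ccr7) numbered 295 under the Irf4-/- label and 476 under the WT label. Ccr7-positive Cd8b1 cells (the same with Ccr7, the lymph node homing receptor of naive and central memory cells, and none of Ccr2) numbered 965 under Irf4-/- and 2534 under WT. Klre1-positive T cells (Klre1, a lectin-like receptor of natural killer cells, with no Cd8b1 or Trdc) numbered 1646 under Irf4-/- and 922 under WT. Gamma-delta T cells (at least 2 Trdc UMIs, with a gamma constant chain and no Cd8b1) numbered 711 under Irf4-/- and 993 under WT, and B-lineage cells (at least 2 Cd79a UMIs and no CD3) 988 under Irf4-/- and 842 under WT. T cell markers summed to between 3985 and 4873 CPM over the 4 T cell classes and to 136 under Irf4-/- and 196 under WT in the B lineage. B cell markers summed to between 13.7 and 22.0 in the T cell classes, against 10388 under Irf4-/- and 10367 under WT in the B lineage.

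S100 proteins are small EF-hand proteins, most of which change shape when they bind calcium and then bind partner proteins. S100A4 binds non-muscle myosin and is known for its part in cell motility, S100A6 binds annexins and other partners, S100A11 binds annexin A1, and S100A10 does not respond to calcium and holds annexin A2 in a complex at the plasma membrane. Annexin A2, the product of Anxa2, binds phospholipid membranes and actin in the presence of calcium. Lgals1 encodes galectin-1, a lectin that binds beta-galactosides, Vim encodes vimentin, an intermediate filament protein, and Crip1 encodes a small LIM domain protein. In mouse T cells, antigen-experienced cells are known to hold more transcripts of several of these genes than naive cells.

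S100a4 and S100a6 lie near each other on chromosome 3, which holds 14 S100a genes in the annotation used. In GRCm38 coordinates S100a4 (ENSMUSG00000001020) lies at chr3:90603771-90606045 and S100a6 (ENSMUSG00000001025) at chr3:90612882-90624181, both on the plus strand and 6836 bases apart. S100a11 (ENSMUSG00000027907, chr3:93520488-93526287) and S100a10 (ENSMUSG00000041959, chr3:93555080-93564643) lie 28792 bases apart on the same strand. The other members lie apart: Lgals1 (ENSMUSG00000068220) at chr15:78926725-78930465, Anxa2 (ENSMUSG00000032231) at chr9:69453620-69491795, Vim (ENSMUSG00000026728) at chr2:13573927-13582826 and Crip1 (ENSMUSG00000006360) at chr12:113146316-113153879, all on the plus strand. Anxa2 overlaps the antisense gene Gm16144, which had 0 UMIs under the Irf4-/- label and 1 under the WT label, against 14929 of Anxa2 under Irf4-/- and 12705 under WT.

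Below are the upstream sequences of S100a4 and S100a6, which differed most between Ccr2-positive and Ccr7-positive cells, and of S100a11, which lies on the same chromosome and differed little. They are from RefSeq on GRCm38.p6, plus strand, 5′ to 3′, up to the annotated start, at chr3:90603520-90603769, chr3:90612644-90612881 and chr3:93520246-93520487. Capitals mark matches, on either strand, of TGANTCA (AP-1), GGGCGG (GC box) or CACCC (bound by KLF factors).
S100a4: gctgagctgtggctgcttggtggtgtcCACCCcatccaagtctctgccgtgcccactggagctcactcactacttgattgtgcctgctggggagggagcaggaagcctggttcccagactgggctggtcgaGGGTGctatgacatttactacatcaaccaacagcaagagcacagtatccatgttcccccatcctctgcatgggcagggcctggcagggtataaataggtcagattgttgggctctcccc
S100a6: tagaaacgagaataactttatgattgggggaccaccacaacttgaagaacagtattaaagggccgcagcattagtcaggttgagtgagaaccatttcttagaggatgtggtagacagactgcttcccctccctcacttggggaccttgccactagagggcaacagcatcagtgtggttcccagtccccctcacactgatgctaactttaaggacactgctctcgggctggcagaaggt
S100a11: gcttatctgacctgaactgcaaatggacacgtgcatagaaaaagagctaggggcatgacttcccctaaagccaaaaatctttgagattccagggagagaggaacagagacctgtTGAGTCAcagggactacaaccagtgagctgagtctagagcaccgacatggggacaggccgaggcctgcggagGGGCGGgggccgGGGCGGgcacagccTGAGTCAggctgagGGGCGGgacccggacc
Promoter sequence was matched for 6 of the 8 members, and the search used the 250 bases before each RefSeq start. Distances are counted to that RefSeq start. It lies 12 annotated exon bases past the printed end for S100a6 and 8 for S100a11. S100a4 held 2 matches of CACCC, 223 and 119 bases before the start, S100a6 held no match, and S100a11 held 2 of TGANTCA (136 and 38 bases before) and 3 of GGGCGG (64, 52 and 24 bases before). Of the 6 members 4 held CACCC, as did 52.0% of 32851 promoters of that length. Vim was among the 4, although all 250 bases of its window are annotated as exon, as are 63 of those of Anxa2. The GC box was in 3 of 6 and 32.7%, and TGANTCA in 2 of 6 (S100a11 and Anxa2) and 6.75%. TGANTCA is its own reverse complement and was counted once, and in Anxa2 it overlaps a CACCC match. A composite ETS-IRF motif (GGAA, any 2 bases, GAAA) and an IRF motif (GAAA, any 2 bases, GAAA) were in 0 of 6, against 2.30% and 2.98% of all promoters. A match is a stretch of letters only, and binding was not measured here.

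Among the calcium-binding S100 genes, S100a4 had its lowest T cell level in Ccr7-positive Cd8b1 cells and was near absent from the B lineage. Its summed level in Ccr2-positive Cd8b1 cells was 77.9 CPM [69.3, 87.2] under the Irf4-/- label and 85.0 [76.8, 93.9] under the WT label, against 24.4 [21.8, 27.4] under Irf4-/- and 23.6 [21.7, 25.6] under WT in Ccr7-positive Cd8b1 cells. Klre1-positive cells had 131 [126, 137] under the Irf4-/- label and 56.9 [51.4, 62.9] under the WT label. The intervals of those 2 values lie far apart, while within each Cd8b1 class the libraries' intervals overlap. Gamma-delta T cells had 116 [108, 125] under the Irf4-/- label and 76.7 [70.0, 83.9] under the WT label, and B-lineage cells 2.94 (16 UMIs) under Irf4-/- and 1.55 (5 UMIs) under WT. The order by level was Klre1-positive, gamma-delta, Ccr2-positive, Ccr7-positive and B lineage under the Irf4-/- label. Under the WT label the Ccr2-positive and gamma-delta classes led with overlapping intervals, followed by the Klre1-positive class.

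S100a6 showed the same low points at higher counts. In Ccr2-positive Cd8b1 cells it had 402 CPM [383, 423] under the Irf4-/- label and 298 [282, 314] under the WT label, and in Ccr7-positive Cd8b1 cells 148 [141, 155] under Irf4-/- and 80.5 [76.9, 84.2] under WT. Klre1-positive cells had 460.1 [450, 470] under Irf4-/- and 236 [224, 248] under WT, and gamma-delta T cells 495 [478, 512] under Irf4-/- and 284 [271, 297] under WT. In all 4 T cell classes the level was higher under the Irf4-/- label than under the WT label, with no overlap of the intervals. The B lineage had 16.7 [13.5, 20.5] under Irf4-/- and 9.01 [6.03, 12.9] under WT, from 91 UMIs under Irf4-/- and 29 under WT. Gamma-delta T cells were highest under the Irf4-/- label, whereas under the WT label the gamma-delta and Ccr2-positive intervals overlapped.

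S100a10 and S100a11 were broad in T cells. S100a10 lay between 471 and 672 CPM in the 4 T cell classes under the Irf4-/- label and between 455 and 639 under the WT label, highest in gamma-delta T cells and lowest in Ccr7-positive Cd8b1 cells in both. S100a11 lay between 191 and 320 under the Irf4-/- label and between 164 and 304 under the WT label, with the same highest and lowest class. The Ccr2-positive and Ccr7-positive intervals of S100a11 overlapped under the Irf4-/- label, 207 [193, 222] and 191 [183, 199]. B-lineage cells stood apart between the libraries for both genes. S100a10 had 178 [167, 190] CPM in B-lineage cells labelled Irf4-/- and 418 [396, 441] in those labelled WT, and S100a11 had 128 [118, 137] under Irf4-/- and 234 [217, 251] under WT.

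Anxa2, whose protein forms the complex with S100A10, was highest in Klre1-positive cells in both libraries, 258 CPM [250, 265] under the Irf4-/- label and 260.3 [248, 273] under the WT label. Gamma-delta T cells followed with 221 [210, 233] under Irf4-/- and 186 [175, 197] under WT. Ccr2-positive Cd8b1 cells had 157 [145, 170] under Irf4-/- and 105 [96, 115] under WT, and Ccr7-positive Cd8b1 cells 110.4 [105, 116] under Irf4-/- and 72.4 [69.0, 75.9] under WT. This order of the 4 T cell classes was the same in both libraries, with no overlap between neighbours. The B lineage held 12 Anxa2 UMIs under Irf4-/- and 10 under WT, or 2.20 CPM under Irf4-/- and 3.11 CPM under WT, although S100a10 stood at 178 CPM under Irf4-/- and 418 CPM under WT there.

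Lgals1, the galectin-1 gene, was highest in gamma-delta T cells under the Irf4-/- label, 391 CPM [376, 406], while under the WT label gamma-delta T cells, 323 [309, 338], and Ccr2-positive Cd8b1 cells, 338 [322, 356], overlapped. Ccr2-positive Cd8b1 cells labelled Irf4-/- had 251 [235, 267]. Ccr7-positive Cd8b1 cells had 211 [203, 219] under Irf4-/- and 237 [231, 243] under WT, Klre1-positive cells 199.99 [193, 207] under Irf4-/- and 162 [153, 172] under WT, and B-lineage cells 247 [234, 261] under Irf4-/- and 135 [123, 148] under WT. Both Cd8b1 classes were thus lower, and the other 3 classes higher, under the Irf4-/- label than under the WT label.

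Vim and Crip1 were the members with their highest level in the B lineage. Vim, the vimentin gene, had 380 CPM [363, 396] in B-lineage cells labelled Irf4-/- and 326 [306, 346] in those labelled WT, and over the T cell classes between 248 and 280.4 under Irf4-/- and between 230.1 and 265 under WT. Crip1, the LIM domain gene, had 1190.1 [1161, 1219] in B-lineage cells labelled Irf4-/- and 809 [779, 841] in those labelled WT, and over the T cell classes between 727 and 819 under Irf4-/- and between 601 and 718 under WT. Under the Irf4-/- label the Vim intervals of Ccr2-positive, Ccr7-positive and gamma-delta cells overlapped. Of the 8 genes, S100a4, S100a6 and Anxa2 were thus those whose levels were furthest apart over the T cell classes, by ratio of the highest to the lowest.

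**Figure D1:**
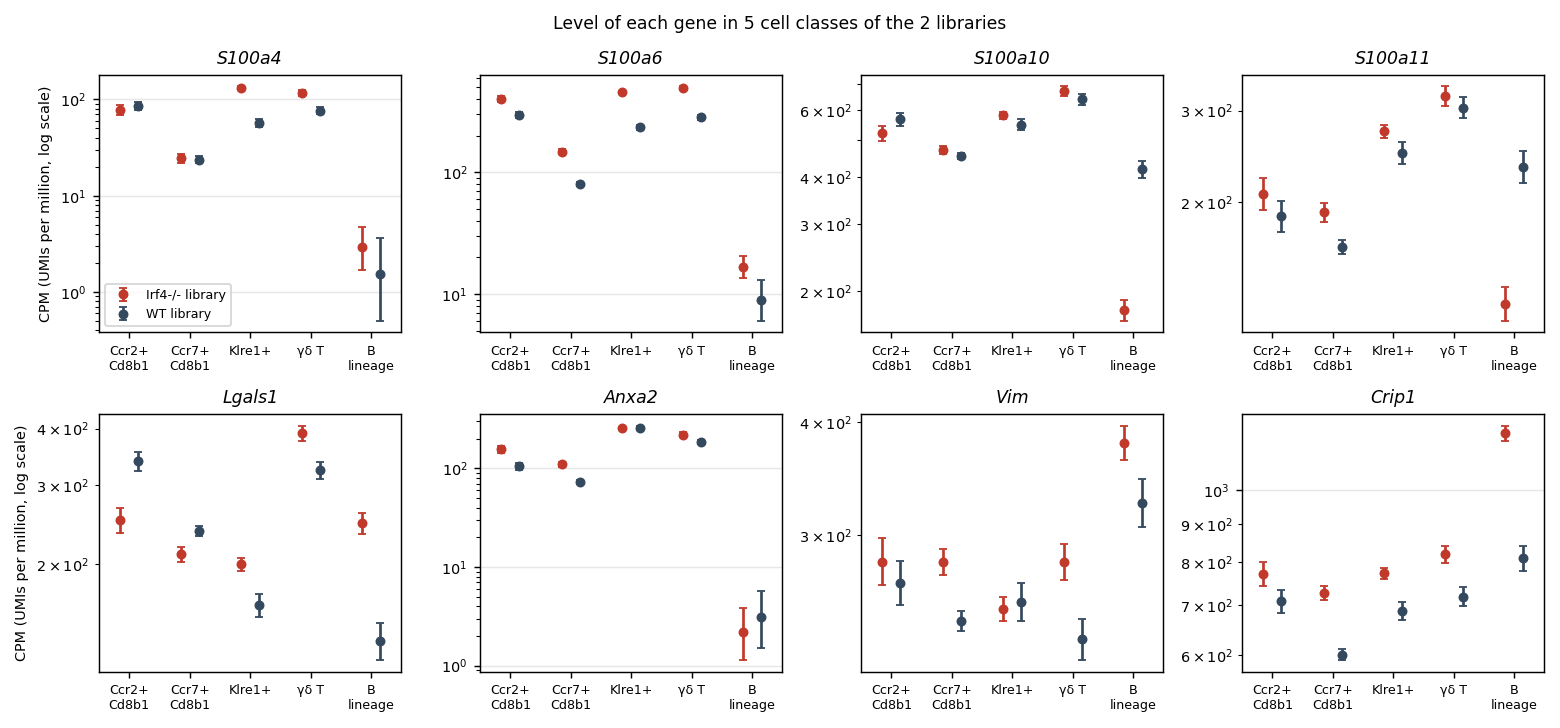
Level of each of the 8 genes in the 5 cell classes, as summed CPM on a log axis whose range differs between panels. Points are the class sums of the libraries labelled Irf4-/- (left of each pair) and WT (right), and bars are exact 95% Poisson intervals; S100a4, S100a6 and Anxa2 drop to between 1.55 and 16.7 in the B lineage, whereas Vim and Crip1 are highest there.

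Shares of cells with a UMI were compared after each cell was thinned to 2000 UMIs, which left out 35 cells labelled Irf4-/- and 71 labelled WT that were shallower. S100a4 was found in 12.9% of Ccr2-positive Cd8b1 cells labelled Irf4-/- and 6.51% labelled WT, against 2.80% of Ccr7-positive Cd8b1 cells under Irf4-/- and 2.13% under WT. Before thinning, the shares were 29.2% under Irf4-/- and 17.6% under WT in Ccr2-positive Cd8b1 cells, and 11.7% under Irf4-/- and 5.72% under WT in Ccr7-positive ones. In B-lineage cells the thinned shares were 0.411% under Irf4-/- and 0.370% under WT, where a cell held a median of 4147.5 UMIs under Irf4-/- and 2971 under WT, while Ccr2-positive Cd8b1 cells held 11586 under Irf4-/- and 8739 under WT. Free RNA was not estimated, and the B-lineage gate leaves out cells with a CD3 UMI, so these shares set no limit for it. S100a6 was found in 39.7% of Ccr2-positive Cd8b1 cells under Irf4-/- and 32.6% under WT, 16.9% of Ccr7-positive ones under Irf4-/- and 10.98% under WT, 42.8% of Klre1-positive cells under Irf4-/- and 27.1% under WT, 43.0% of gamma-delta T cells under Irf4-/- and 32.6% under WT and 3.08% of the B lineage under Irf4-/- and 1.36% under WT. Anxa2 was found in 39.2% of Klre1-positive cells under Irf4-/- and 35.2% under WT, and in 0.206% of the B lineage under Irf4-/- and 0.494% under WT.

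At equal depth S100a4 stood in a higher share of Ccr2-positive Cd8b1 cells under the Irf4-/- label, while its summed level was no higher there. The WT sum rested on few cells: after thinning, the 24 cells with most S100a4 (5% of the class) held 91.2% of its 80 UMIs, and the highest single cell held 12. Under the Irf4-/- label the 15 highest cells held 56.6% of 53 UMIs. For S100a10, found in 62.0% of these cells under Irf4-/- and 64.7% under WT, the same share of cells held 21.2% under Irf4-/- and 21.8% under WT. Such values depend on how many cells hold a gene, so they do not compare how evenly S100a4 and S100a10 are spread. A cell held on average 3.05 of the 8 genes in Ccr2-positive Cd8b1 cells labelled Irf4-/- and 2.92 in those labelled WT, against 2.53 under Irf4-/- and 2.28 under WT in Ccr7-positive ones. Averages were 3.32 under Irf4-/- and 2.98 under WT in Klre1-positive cells, 3.59 under Irf4-/- and 3.20 under WT in gamma-delta T cells and 1.88 under Irf4-/- and 2.04 under WT in the B lineage. At least 5 of the 8 were found together in 27.3% of gamma-delta T cells under Irf4-/- and 17.7% under WT, but in 8.50% of Ccr7-positive Cd8b1 cells under Irf4-/- and 5.17% under WT.

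**Figure D2:**
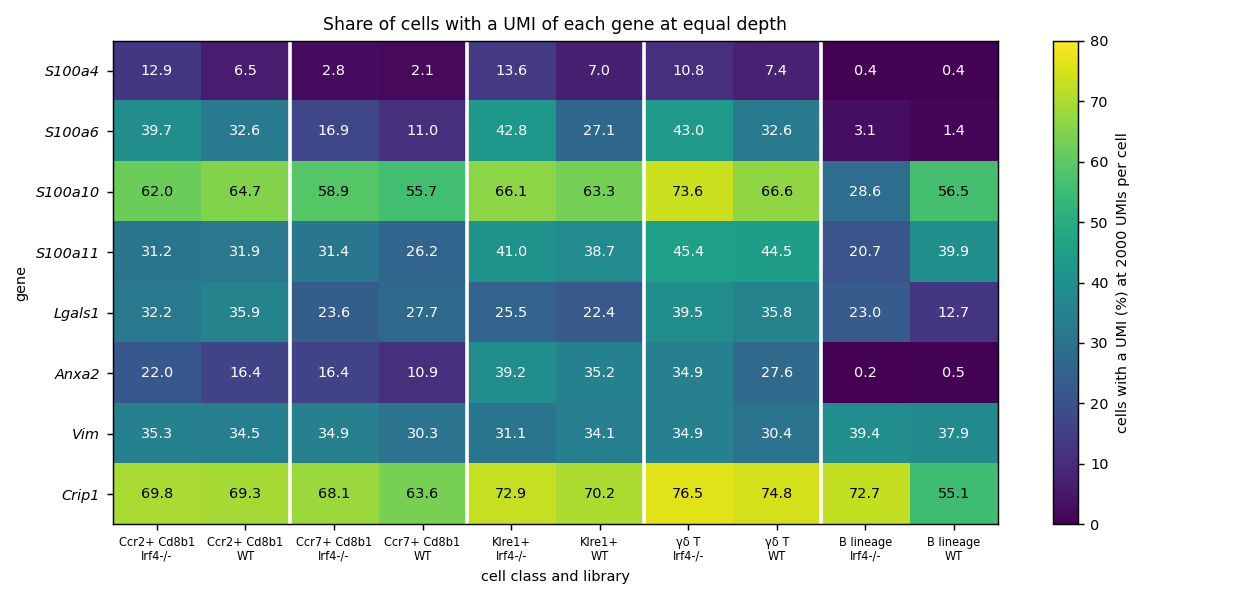
Share of cells (%) with at least 1 UMI of each gene after thinning to 2000 UMIs per cell. Rows are genes and columns are the 5 classes, the library labelled Irf4-/- left of the one labelled WT; over the T cell classes S100a10 is found in 55.7% to 73.6% of cells and S100a4 in 2.13% to 13.6%.

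Ccr2-positive against Ccr7-positive Cd8b1 cells sets a memory-type receptor against a naive-type one. S100a4 and S100a6 were several times higher in Ccr2-positive cells of both libraries, Anxa2 and Lgals1 moderately higher, and S100a10, S100a11, Vim and Crip1 little different. The log2 ratio of S100a4 was 1.67 [1.44, 1.91] under the Irf4-/- label and 1.85 [1.66, 2.04] under the WT label. S100a6 had 1.44 [1.34, 1.54] under Irf4-/- and 1.89 [1.79, 1.99] under WT. Anxa2 had 0.51 [0.37, 0.65] under Irf4-/- and 0.54 [0.39, 0.69] under WT, and Lgals1 0.25 [0.14, 0.36] under Irf4-/- and 0.51 [0.43, 0.59] under WT. The remaining members lay between 0.00 for Vim and 0.14 for S100a10 under the Irf4-/- label, and between 0.14 for Vim and 0.32 for S100a10 under the WT label.

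In each library 2 of the 8 members reached a log2 ratio of 1, where 0.449% of 4681 measured genes under the Irf4-/- label and 0.452% of 4648 under the WT label did, and no member was lower by that size, where 0.107% of genes under Irf4-/- and 0.0215% under WT were. Measured genes have a mean of at least 20 CPM. Since this contrast helped to choose the members, nothing is read from that count. The first member outside that limit was Anxa2, with 0.51 under Irf4-/- and 0.54 under WT, and the nearest inside it were S100a6 with 1.44 under the Irf4-/- label and S100a4 with 1.85 under the WT label. The members' median was 0.20 under Irf4-/- and 0.42 under WT, against 0.06 under Irf4-/- and 0.04 under WT over all measured genes. As a share of cells at 2000 UMIs, the median difference over the 8 was 4.42 percentage points under Irf4-/- and 5.74 under WT.

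Klre1 moved with this comparison: at equal depth it was found in 32.5% of Ccr2-positive Cd8b1 cells labelled Irf4-/- and 10.9% labelled WT, against 12.6% of Ccr7-positive ones under Irf4-/- and 4.54% under WT. Natural killer and innate lymphoid markers summed to 553 CPM under Irf4-/- and 433 CPM under WT in the Ccr2-positive class and 281 under Irf4-/- and 201 under WT in the Ccr7-positive class, with Ncr1 at 0 in both Ccr2-positive and Ccr7-positive cells of both libraries. Without cells holding a Klre1 UMI, a setting chosen after seeing the data, S100a4 kept 1.36 under Irf4-/- and 2.20 under WT and S100a6 1.56 under Irf4-/- and 2.07 under WT. In the library labelled Irf4-/- the same setting gave -0.06 for Anxa2 and -0.07 for Lgals1, while in the one labelled WT they had 0.69 and 0.57. Neutrophil genes (8 genes, S100a8 and Elane among them) had 55.0 CPM under Irf4-/- and 6.51 CPM under WT in Ccr2-positive Cd8b1 cells, against 3.40 under Irf4-/- and 4.58 under WT in Ccr7-positive ones. Without the Ccr2-positive cells holding at least 3 such UMIs, 4 under Irf4-/- and 2 under WT, and the like cells of the Ccr7-positive class, the S100a4 ratio under the WT label was 1.61.

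The same receptors were then read in T cells outside the Cd8b1 classes, a split that the choice of members does not name, in cells of the same libraries. T cells without a Cd8b1 UMI include the Klre1-positive and gamma-delta classes, whose levels the choice did use and which are read apart in the next paragraph, so these groups are nested and not separate support. In T cells without a Cd8b1 UMI, S100a4 had 201 CPM with Ccr2 against 80.9 with Ccr7 under the Irf4-/- label, and 273 with Ccr2 against 46.9 with Ccr7 under the WT label, log2 ratios of 1.31 [1.15, 1.47] under Irf4-/- and 2.54 [2.27, 2.80] under WT. S100a6 had 0.79 [0.71, 0.88] under Irf4-/- and 1.68 [1.53, 1.83] under WT, and Lgals1 0.76 [0.65, 0.87] under Irf4-/- and 1.43 [1.27, 1.59] under WT. The Ccr2-positive groups held 324 cells under Irf4-/- and 100 under WT and the Ccr7-positive groups 652 under Irf4-/- and 773 under WT. Of the 8 members 1 under Irf4-/- and 3 under WT reached a log2 ratio of 1, against 1.14% of measured genes under Irf4-/- and 2.91% under WT (0.0814% under Irf4-/- and 0.279% under WT were lower by that size, no member among them), and their median was 0.45 under Irf4-/- and 0.82 under WT against 0.10 under Irf4-/- and 0.13 under WT over all genes. Neutrophil genes had 466 CPM under Irf4-/- and 486 CPM under WT in these Ccr2-positive cells, against 3.47 under Irf4-/- and 64.2 under WT in the Ccr7-positive ones. Of these UMIs in Ccr2-positive cells, 4 cells held 99.1% under Irf4-/- and 3 cells held 99.5% under WT. Without such cells S100a4 had 1.20 under Irf4-/- and 2.14 under WT, S100a6 0.70 under Irf4-/- and 1.59 under WT, Lgals1 0.59 under Irf4-/- and 1.24 under WT and Vim -0.02 under Irf4-/- and 0.65 under WT, where Vim had 0.20 under Irf4-/- and 0.97 under WT with them.

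Gamma-delta T cells that held Ccr2 (57 cells under Irf4-/- and 25 under WT) had 265 CPM of S100a4 under Irf4-/- and 232 CPM under WT, against 84.1 under Irf4-/- and 77.5 under WT in those that held Ccr7 (154 cells under Irf4-/- and 217 under WT). Their log2 ratios were 1.65 [1.31, 2.01] under the Irf4-/- label and 1.59 [1.06, 2.09] under the WT label. S100a6 had 1.04 [0.87, 1.21] under Irf4-/- and 1.44 [1.14, 1.72] under WT, Lgals1 0.87 under Irf4-/- and 0.50 under WT, and Anxa2 0.89 under Irf4-/- and 0.36 under WT. Here 2 of 8 members reached a log2 ratio of 1 in each library, against 2.11% of measured genes under Irf4-/- and 7.51% under WT (0.824% under Irf4-/- and 3.96% under WT were lower, no member among them), and the medians were 0.63 under Irf4-/- and 0.52 under WT against 0.10 under Irf4-/- and 0.09 under WT. Ccr2 was held by 224 Klre1-positive cells under Irf4-/- and 41 under WT, where S100a4 had 0.79 [0.56, 1.02] under Irf4-/- and 2.06 [1.54, 2.59] under WT, and Lgals1 0.51 under Irf4-/- and 1.25 under WT. None of the 8 under the Irf4-/- label and 2 of 8 under the WT label reached 1, against 0.682% under Irf4-/- and 3.56% under WT, and none was lower by 1, against 0.124% under Irf4-/- and 1.84% under WT. Without cells holding at least 3 neutrophil UMIs the WT values were 1.26 for S100a4 and 0.74 for Lgals1. With all cells kept, S100a6 had 0.43 under Irf4-/- and 0.84 under WT in Klre1-positive cells. At equal depth S100a6 was found there in 47.8% of cells with Ccr2 against 39.6% with Ccr7 under Irf4-/-. Under WT the shares were 29.3% [16.1, 45.5] with Ccr2 against 30.1% [22.7, 38.3] with Ccr7, so they showed no rise. By summed level, S100a4 and S100a6 thus stood above 0 in each of these classes and libraries, and in none of them did S100a10 reach 1.

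**Figure D3:**
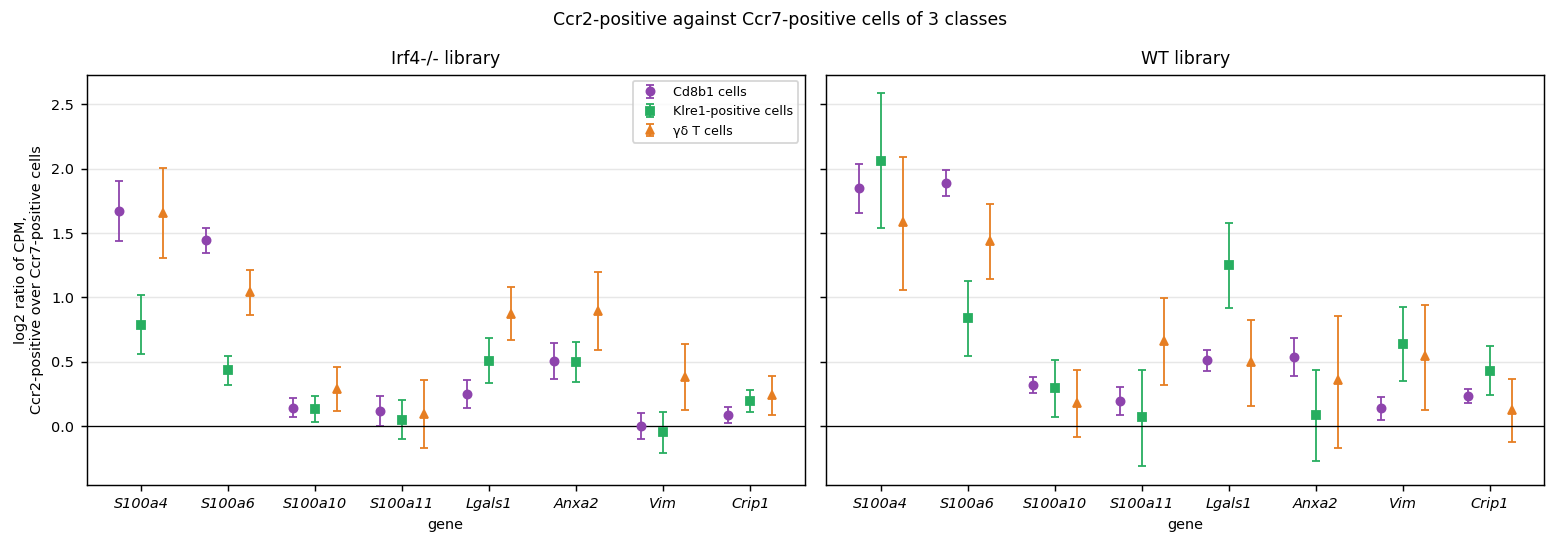
Log2 ratio of CPM, Ccr2-positive over Ccr7-positive cells, for each gene in Cd8b1 cells (circles), Klre1-positive cells (squares) and gamma-delta T cells (triangles), with the library labelled Irf4-/- on the left and the one labelled WT on the right. Bars are exact 95% intervals for counting error; S100a4 lies between 0.79 and 2.06 and S100a10 between 0.13 and 0.32.

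S100a6 had a higher summed level under the Irf4-/- label than under the WT label in each T cell class. Its log2 ratio, Irf4-/- over WT, was 0.43 [0.33, 0.54] in Ccr2-positive Cd8b1 cells, 0.88 [0.79, 0.97] in Ccr7-positive ones, 0.96 [0.89, 1.04] in Klre1-positive cells and 0.80 [0.72, 0.89] in gamma-delta T cells. S100a4 differed by class, with -0.13 [-0.35, 0.09], 0.05 [-0.16, 0.25], 1.21 [1.05, 1.37] and 0.60 [0.43, 0.77] in the same order. Anxa2 was higher under the Irf4-/- label in both Cd8b1 classes, 0.58 [0.40, 0.75] and 0.61 [0.51, 0.71], and at -0.02 [-0.09, 0.06] in Klre1-positive cells. Lgals1 had -0.43 [-0.55, -0.32] and -0.17 [-0.24, -0.10] in the Cd8b1 classes, against 0.30 [0.20, 0.40] and 0.27 [0.19, 0.36] in Klre1-positive and gamma-delta T cells. Among T cell classes S100a10 stayed between -0.12 and 0.08, S100a11 between 0.07 and 0.22, Vim between -0.03 and 0.28 and Crip1 between 0.12 and 0.27.

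At a log2 ratio of at least 0.5, the members higher under the Irf4-/- label were Anxa2 in Ccr2-positive Cd8b1 cells, S100a6 and Anxa2 in Ccr7-positive ones, and S100a4 and S100a6 in Klre1-positive and in gamma-delta T cells. These are 1, 2, 2 and 2 of 8, against 3.68%, 2.36%, 1.55% and 1.94% of the measured genes. No member was lower by that size in a T cell class, where 1.87%, 0.605%, 0.628% and 0.939% of genes were. The members' medians were 0.10, 0.22, 0.15 and 0.26, against 0.02, -0.005, -0.001 and -0.01 over all measured genes. Over all kept cells S100a6 alone was higher by that size, with 0.71 [0.68, 0.74], and no member was lower, against 3.6% and 0.43% of genes. Since levels in each of these libraries helped to choose the members, nothing is read from these counts and medians. The same holds for the counts of members between libraries given below.

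Several of these values depended on which cells were counted. Without Klre1 cells, a setting chosen after seeing the data, S100a6 had -0.09 in Ccr2-positive Cd8b1 cells and 0.42 in Ccr7-positive ones, and Anxa2 had -0.23 and 0.52. S100a4 in Ccr2-positive Cd8b1 cells ran from -1.05 to 0.37 over the settings tried, and in Ccr7-positive ones from -0.43 to 0.89. In gamma-delta T cells S100a4 had -0.11 with gates applied to thinned counts. In Klre1-positive cells S100a4 kept between 1.01 and 1.56 and S100a6 between 0.88 and 1.18 under every setting tried, and in gamma-delta T cells S100a6 kept between 0.70 and 0.83. Counted before thinning, dividing cells (a UMI of Mki67 or Top2a) made up 15.1% of Klre1-positive cells under Irf4-/- and 7.05% under WT. The libraries differed in depth, and the part of depth in these shares was not tested. Without dividing cells S100a4 had 1.56 in Klre1-positive cells.

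Outside the 5 classes, Cd8b1 cells with neither receptor (1379 cells under Irf4-/- and 3347 under WT) had 55.6 CPM of S100a4 under the Irf4-/- label and 80.1 under the WT label, a log2 ratio of -0.53 [-0.64, -0.41], and 160 of Anxa2 under Irf4-/- and 105 under WT, a ratio of 0.61 [0.53, 0.69]. Cd8b1 cells with both receptors (215 cells under Irf4-/- and 335 under WT) had 78.4 of S100a4 under Irf4-/- and 48.5 under WT, 0.69 [0.42, 0.97], and 282 of S100a6 under Irf4-/- and 187 under WT, 0.59 [0.46, 0.74]. With the gates as set, S100a4 thus took both directions among Cd8b1 cells. With neither receptor 1 of 8 members was higher and 1 lower by 0.5, against 2.56% of genes higher and 0.688% lower, and with both receptors 3 of 8 were higher (S100a4, S100a6 and Anxa2, the last with 0.61) and none lower, against 6.84% higher and 1.95% lower. Ccr7-positive T cells without Cd8b1 had 0.78 [0.57, 1.01] for S100a4 and 0.86 [0.76, 0.97] for S100a6, 2 of 8 members higher and none lower, against 1.35% of genes higher and 1.42% lower. In Ccr2-positive T cells without Cd8b1 the excess of S100a6 under the Irf4-/- label was not seen, with -0.03 [-0.16, 0.11], and S100a4 was lower, with -0.44 [-0.66, -0.22]. Lgals1 had -0.70 [-0.86, -0.55] there and Vim -0.61 [-0.78, -0.44], so that 0 of 8 members were higher and 2 lower by 0.5, against 5.64% of genes higher and 9.2% lower. Without cells holding at least 3 neutrophil UMIs, S100a4 had -0.15 [-0.40, 0.10] in these Ccr2-positive T cells, an interval that includes 0. Lgals1 then had -0.69 and Vim -0.52.

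**Figure D4:**
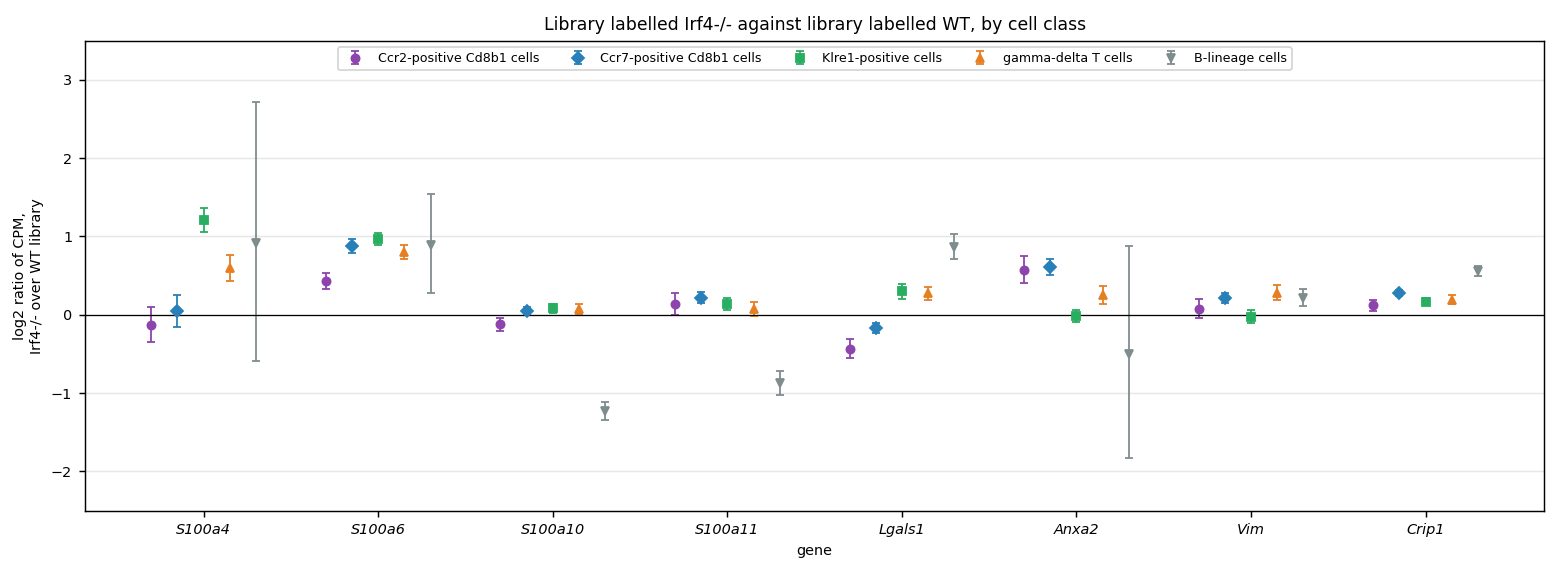
Log2 ratio of CPM for each gene in the 5 cell classes, with the Irf4-/- label over the WT label. Points above 0 are higher under the Irf4-/- label, and bars are exact 95% intervals for counting error; S100a6 lies between 0.43 and 0.96 in all 5 classes, and in the B lineage S100a10 lies at -1.23 and S100a11 at -0.87.

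In the B lineage the calcium-insensitive S100a10 and the nearby S100a11 were lower under the Irf4-/- label, with log2 ratios of -1.23 [-1.35, -1.11] and -0.87 [-1.02, -0.72], and Lgals1 and Crip1 higher, with 0.87 [0.71, 1.03] and 0.56 [0.49, 0.62]. Vim had 0.22 [0.11, 0.33]. Of the 5 members above 20 CPM there, 2 were higher and 2 lower by at least 0.5, against 5.34% of genes higher and 4.61% lower. S100a4, S100a6 and Anxa2 were under that minimum. The share of cells with a UMI at 2000 UMIs followed for S100a10, 28.6% under the Irf4-/- label and 56.5% under the WT label, and for S100a11, 20.7% under Irf4-/- and 39.9% under WT.

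The libraries held different B-lineage cells: 313 cells labelled Irf4-/- and 17 labelled WT had a UMI of Vpreb1 or Igll1, genes of the pre-B receptor, and 456 under Irf4-/- and 506 under WT were mature cells with Ighd or Fcer2a. Each kind was therefore read apart. In mature cells S100a10 had 226 CPM under Irf4-/- against 429 under WT, a ratio of -0.92 [-1.08, -0.77], and S100a11 151 under Irf4-/- against 236 under WT, a ratio of -0.65 [-0.85, -0.45]. Lgals1 had 164 under Irf4-/- against 111 under WT, 0.56 [0.32, 0.81], and Crip1 973 under Irf4-/- against 650 under WT, 0.58 [0.48, 0.68], where 6.39% of genes were higher and 5.57% lower by at least 0.5. In the remaining B-lineage cells, neither progenitor nor mature, S100a10 had -1.13 [-1.38, -0.88] and S100a11 -1.16 [-1.49, -0.84], none of 5 higher and 2 lower, against 8.78% of genes higher and 12.5% lower.

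Progenitor B cells labelled Irf4-/- had 111 CPM of S100a10 against 267 for the 17 cells labelled WT, a ratio of -1.26 [-1.66, -0.84]. S100a11 went the other way there, with 103 under Irf4-/- against 56.6 under WT, a ratio of 0.86 [0.08, 1.76] on 210 UMIs under Irf4-/- and 14 under WT, and Crip1 had 1537 under Irf4-/- against 2008 under WT, -0.39 [-0.52, -0.25]. Counted before thinning, dividing cells made up 18.8% of these progenitors under Irf4-/- and 52.9% under WT, and the part of depth was not tested. In that comparison 25% of genes were higher and 20.7% lower by 0.5. Neutrophil genes had 968 CPM in the progenitor cells labelled Irf4-/-, 99.7% of them in 2 cells. Without such cells S100a11 in the progenitors had 0.25 [-0.55, 1.16], an interval that includes 0. Elane and Mpo, granule genes of neutrophil precursors, had 1122 and 719 UMIs in all B-lineage cells labelled Irf4-/- and 0 in those labelled WT. Without cells holding at least 3 neutrophil UMIs, S100a11 in the whole B lineage had -1.02. Among B-lineage cells of 5000 to 12000 UMIs, Lgals1 had -0.03, Vim -0.34 and Crip1 0.17. With progenitor, mature and other cells weighted equally, Crip1 had 0.02.

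**Figure D5:**
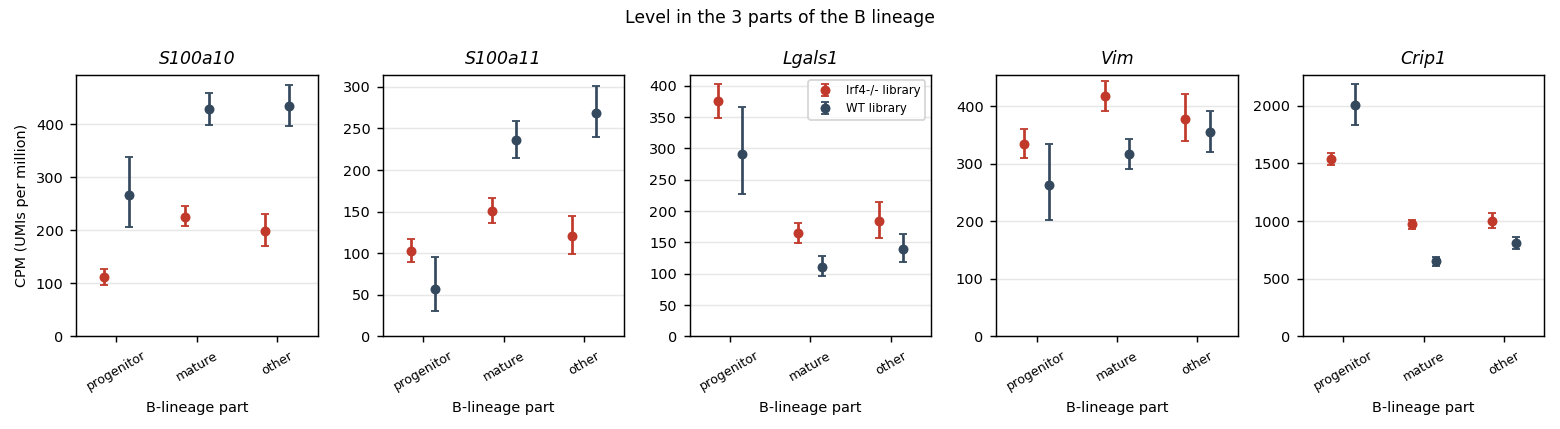
Summed CPM of the 5 members measured in the B lineage, in progenitor, mature and other B-lineage cells. Points are the libraries labelled Irf4-/- (left) and WT (right) with exact 95% Poisson intervals; S100a10 is lower under the Irf4-/- label in each kind, and S100a11 in mature and other cells but not in the progenitors.

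Dividing T cells, which hold a UMI of Mki67 or Top2a, had higher summed levels of all 8 members than T cells without either. S100a4 had 168 CPM in dividing cells against 64.8 in the others under the Irf4-/- label, and 203 in dividing cells against 43.0 in the others under the WT label, log2 ratios of 1.38 [1.30, 1.45] under Irf4-/- and 2.24 [2.16, 2.32] under WT. Lgals1 had 1.25 [1.20, 1.29] under Irf4-/- and 1.44 [1.40, 1.49] under WT, and Vim, whose ratio of Ccr2-positive over Ccr7-positive Cd8b1 cells was 0.00 under Irf4-/- and 0.14 under WT, had 1.17 [1.13, 1.21] under Irf4-/- and 1.14 [1.09, 1.19] under WT. Crip1 had 0.78 under Irf4-/- and 0.82 under WT, Anxa2 0.62 under Irf4-/- and 0.82 under WT, S100a6 0.45 under Irf4-/- and 0.94 under WT, S100a10 0.23 under Irf4-/- and 0.57 under WT, and S100a11 0.14 under Irf4-/- and 0.36 under WT. At least 0.5 was reached by 5 of 8 members under Irf4-/- and 7 under WT, against 12.9% of genes under Irf4-/- and 13.7% under WT (1.26% under Irf4-/- and 0.955% under WT were lower, no member among them), with medians of 0.70 under Irf4-/- and 0.88 under WT against 0.07 under Irf4-/- and 0.10 under WT. The groups held 970 dividing cells under Irf4-/- and 830 under WT and 5685 others under Irf4-/- and 10303 under WT, and the median dividing cell held 13994.5 UMIs under Irf4-/- and 9811.5 under WT, against 9586 under Irf4-/- and 7162 under WT in the others. The part of depth in these ratios was not tested.

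Within dividing T cells S100a4 had a log2 ratio, Irf4-/- over WT, of -0.27 [-0.36, -0.19], and within the others 0.59 [0.52, 0.66]. S100a6 had 0.33 [0.27, 0.39] within dividing cells and 0.83 [0.80, 0.86] within the others. None of the 8 reached 0.5 in dividing cells, where 1.22% of genes did, and 2 of 8 did in the others, against 1.44%. No member was lower by 0.5 in either, against 1.18% of genes in dividing cells and 0.473% in the others. Before thinning, dividing cells made up 18.0% of Ccr2-positive Cd8b1 cells under Irf4-/- and 12.4% under WT. They made up 16.8% of Ccr7-positive ones under Irf4-/- and 9.27% under WT. The part of depth in these shares was not tested. Without dividing cells the Ccr2 over Ccr7 ratio of S100a4 was 2.55 under the Irf4-/- label and 2.22 under the WT label, and that of Vim 0.16 in both.

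S100a6 was found more often in cells with S100a4 than in cells without it. At 2000 UMIs, S100a6 was found in 63.2% [46.0, 78.2] of the 38 Ccr2-positive Cd8b1 cells labelled Irf4-/- that held S100a4, against 36.2% [30.3, 42.4] of the 257 that did not, and in 71.0% against 29.9% under the WT label. In Ccr7-positive Cd8b1 cells the shares were 51.9% against 15.9% under Irf4-/- and 40.7% against 10.3% under WT, in Klre1-positive cells 65.5% against 39.2% under Irf4-/- and 48.4% against 25.5% under WT, and in gamma-delta T cells 59.7% against 41.0% under Irf4-/- and 60.3% against 30.4% under WT. This was not particular to S100a6, as the other members were also found more often in cells with S100a4 in these classes and libraries. The exceptions were S100a11 (42.5% against 44.7%) and Crip1 (72.6% against 74.9%) in gamma-delta T cells labelled WT. In Klre1-positive cells labelled WT, Lgals1 had 51.6% against 20.2%, further apart than S100a6. Cells of 1 library share their source, and no test was made over cells. Over cells within a class, correlations between pairs of members were weak, with a highest value of 0.33.

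Over the 10 sums of 5 classes and 2 libraries, S100a4 and S100a6 had the most similar patterns of any pair, with a Pearson correlation of 0.99, as a description over sums that share library and depth. Both fell in the B lineage, S100a4 to 2.94 CPM under Irf4-/- and 1.55 under WT and S100a6 to 16.7 and 9.01. How much of the correlation comes from that fall was not tested. S100a6 and Anxa2 had 0.96, Vim and Crip1 0.86, and Anxa2 and Vim -0.84. With the mean pattern of the 8, which includes the gene compared, S100a6 had 0.91, S100a4 0.90, Anxa2 0.80, S100a10 0.72, S100a11 0.70 and Lgals1 0.66, while Crip1 had -0.19 and Vim -0.51. Of 2437 genes ranked by the same measure, members included, the likest outside the members were S100a13 (0.961), Ppp1r12a (0.961), Tap2 (0.958), Cap1 (0.956), Arpc2 (0.943), Klrc1 (0.937), Psme1 (0.936) and Ppp1r18 (0.933). S100a13 is another S100 gene of chromosome 3, Ppp1r12a encodes a myosin phosphatase subunit, Cap1 and Arpc2 act on actin, and Klrc1 encodes a natural killer lectin receptor.

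Other genes of the same families moved little between Ccr2-positive and Ccr7-positive Cd8b1 cells, as did the members S100a10, S100a11, Vim and Crip1. Of 13 other S100 genes listed, 2 were measured and none reached a log2 ratio of 1, S100a13 having 0.27 in both libraries. Of 13 other annexins and galectins 7 were measured and none reached it, with medians of 0.19 under Irf4-/- and 0.14 under WT, and with 0.22 under Irf4-/- and 0.12 under WT for Anxa6. Actin and membrane cytoskeleton genes had 26 of 28 measured, none at 1, with 20 of them under Irf4-/- and 23 under WT above 0, and were led by Ahnak, which encodes a large membrane scaffold that binds S100A10 and annexin A2, at 0.42 under Irf4-/- and 0.46 under WT. Filament, tubulin and LIM genes had medians of -0.01 under Irf4-/- and -0.07 under WT, with none at 1 and -0.49 under Irf4-/- and -0.44 under WT for Tuba1a.

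Memory and effector genes other than the members, with the gate gene Ccr2 left out, were counted at a log2 ratio of 1 or more. They had 5 of 21 measured under the Irf4-/- label and 5 of 20 under the WT label, against 0.449% and 0.452% of all measured genes. Gzmm, a granzyme, had 1.42 under Irf4-/- and 1.75 under WT, and Id2, a transcription regulator of effector cells, 1.37 under Irf4-/- and 1.57 under WT. Naive T cell genes had 1 of 14 measured lower by that size in each library, against 0.107% of all measured genes under Irf4-/- and 0.0215% under WT. Their medians were -0.23 under Irf4-/- and -0.38 under WT. With the gate gene Ccr7 left out, the lower gene was Dapl1, which had -1.30 under Irf4-/- and -1.52 under WT. Lef1, a transcription factor of naive cells, had -0.60 under Irf4-/- and -0.65 under WT. The members with ratios like those of Gzmm and Id2 were S100a4 and S100a6. Gzmm and Id2 were named by the size of this ratio, and the lists were chosen with earlier results of these data known. Nothing is therefore read from that likeness or from these counts.

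Between the libraries, naive genes were lower by at least 0.5 under the Irf4-/- label in 2 of 14, 3 of 15, 4 of 15 and 3 of 15 measured genes of the Ccr2-positive, Ccr7-positive, Klre1-positive and gamma-delta classes, against 1.87%, 0.605%, 0.628% and 0.939% of all measured genes. By the same size 1 naive gene was higher in the Ccr2-positive class, 1 in the Ccr7-positive class and none in the other 2. The medians of the naive genes were -0.28, -0.28, -0.29 and -0.33. Il7r, the interleukin 7 receptor gene, had -0.99, -0.67, -1.02 and -0.89. Memory and effector genes went both ways: 2 of 22, 3 of 20, 5 of 22 and 4 of 21 were higher by 0.5, against 3.68%, 2.36%, 1.55% and 1.94% of all measured genes, while 2 were lower in the Ccr2-positive class and none in the other 3. Their medians were 0.01, 0.19, 0.12 and 0.22, with 11, 6, 4 and 8 of them below 0. Id2, one of these genes, had 0.53, 0.73, 1.49 and 0.98. Actin and membrane cytoskeleton genes had 0 of 26 past 0.5 in either direction in each of the 4 classes. In the B lineage Ahnak had 1.51 and Zyx, an actin adhesion protein gene, -0.83, and the galectin-3 binding protein gene Lgals3bp had 2.66.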

How the data were processed

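The authors deposited raw UMI counts for every gene and barcode of a droplet 3' library (kit version 3, per the labels' protocols, whose text speaks of nuclei while cells were sorted), made by the authors with Cell Ranger 6.1.1 per the file headers and on mm10 per the submitters' processing notes. The sources used here do not name the annotation release. No column belonged to an unmapped sample (0).

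Barcodes were kept with at least 500 genes, 1000 UMIs and under 10% mitochondrial UMIs, which left 7955 of 8147 and 12367 of 12732 in the libraries labelled Irf4-/- and WT. Kept cells held 82195217 and 94374447 UMIs. No cell fell in more than 1 class. Classes took 57.9% and 46.6% of kept cells, and the gates are those given with each class, so no clustering was used. No doublet caller was run: cells with both CD3 and Cd79a (252 and 333) entered no class. UMIs were summed per class and library and divided by the class total (CPM, computed here), with exact Poisson 95% intervals; ratios have exact conditional binomial intervals and shares Clopper-Pearson ones. PCR copies are removed by UMIs, yet intervals cover counting error only. A gene was measured with a mean of at least 20 CPM, and the sizes used were log2 ratios of 1 (Ccr2 against Ccr7) and 0.5 (libraries, dividing cells). The steps were tested on simulated data.

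The members and gene lists were chosen with earlier results of these data known. Named genes are the 8 members, up to 4 per list by the mean absolute log2 ratio of Ccr2-positive over Ccr7-positive Cd8b1 cells, and the 8 genes likest the members' mean pattern among genes with at least 50 CPM; genes such as Elane, Mpo and Irf4 are named beside results they touch. Alternatives changed the gates, filters, scaling, depth, thinning and cells left out. Positions are from GENCODE M21 and sequences from RefSeq, both on GRCm38. Python 3.11.15, numpy 2.4.6, scipy 1.17.1, pandas 2.3.3 and matplotlib 3.10.9 were used.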

Additional observations from a re-analysis of the deposited data

Results flagged for a closer look

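For 3 members the library difference had opposite directions in different classes, each with a counting interval that excluded 0; with 1 library per genotype these differences between classes were not tested. The values are log2 ratios, Irf4-/- over WT by label. S100a10 had 0.05 in Ccr7-positive Cd8b1 cells, 0.08 in Klre1-positive cells and 0.07 in gamma-delta T cells, against -0.12 in Ccr2-positive Cd8b1 cells and -1.23 in the B lineage. Its small ratios in T cells were not stable: over the settings tried they ran from -0.07 to 0.10 in Ccr7-positive and from -0.34 to 0.10 in Ccr2-positive Cd8b1 cells and from -0.07 to 0.14 in gamma-delta T cells. S100a11 had 0.14 in Ccr2-positive and 0.22 in Ccr7-positive Cd8b1 cells and 0.14 in Klre1-positive cells, against -0.87 in the B lineage, and in Ccr2-positive Cd8b1 cells it ran from -0.27 to 0.33. Lgals1 had 0.30 in Klre1-positive cells, 0.27 in gamma-delta T cells and 0.87 in the B lineage, against -0.43 in Ccr2-positive and -0.17 in Ccr7-positive Cd8b1 cells. Over the settings Lgals1 ran from -0.13 to 0.29 in gamma-delta T cells and from -0.03 to 1.02 in the B lineage.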

How the results depend on the processing

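No paired analysis was possible because each genotype had 1 library. Of 105 medians of the 8 members under alternative settings, 103 stayed within the members' range and 2 did not: the Irf4-/- over WT median in gamma-delta T cells was 0.045 with gates on thinned counts (0.26 as reported), and the Ccr2 over Ccr7 median of Cd8b1 cells labelled Irf4-/- was -0.0082 without Klre1 cells (0.20 as reported; chosen after seeing the data). That range, from the lowest to the highest member value, is wide, so staying inside it does not show that a median was stable. In the B lineage it ran from -1.23 for S100a10 to 0.92 for S100a4, and medians from -0.48 to 0.49 all counted as inside. Of single members past the size used (0.5 between libraries, 1 for Ccr2 over Ccr7) with an interval that excluded 0, 3 reversed: S100a4 in gamma-delta T cells at -0.11 with gates on thinned counts, Lgals1 in the B lineage at -0.033 among cells of 5000 to 12000 UMIs, and Anxa2 in Ccr2-positive Cd8b1 cells at -0.23 without Klre1 cells, all Irf4-/- over WT. Counting every size, 16 of the 103 member results whose interval excluded 0 changed sign under at least 1 setting. Smaller ones between libraries were S100a6 (-0.09) and S100a11 (-0.27) in Ccr2-positive Cd8b1 cells without Klre1 cells, Vim in the B lineage (-0.34) and in Ccr7-positive Cd8b1 cells (-0.05) among cells of 5000 to 12000 UMIs, and Lgals1 in gamma-delta T cells (-0.13) with gates on thinned counts. Without Klre1 cells, Ccr2 over Ccr7 under the Irf4-/- label was -0.06 for Anxa2, -0.07 for Lgals1, -0.03 for S100a10 and -0.20 for S100a11. S100a10 between libraries changed sign in 3 T cell classes, and Vim with Ccr2 over Ccr7 in T cells without Cd8b1 under the Irf4-/- label was -0.02 without neutrophil cells. The causes were not tested. A further 166 member values moved beyond their counting interval without such a reversal, and 559 did not. Medians of Irf4-/- over WT ran from -0.25 to 0.25 in Ccr2-positive and 0.06 to 0.30 in Ccr7-positive Cd8b1 cells, 0.12 to 0.19 in Klre1-positive cells and -0.48 to 0.49 in the B lineage. S100a10 in the B lineage ran from -1.52 to -1.07 and S100a11 from -1.23 to -0.59. The S100a4 ratio of Ccr2 over Ccr7 ran from 1.36 to 3.14 under the Irf4-/- label and from 1.61 to 3.14 under the WT label, and that of S100a6 from 1.39 to 1.99 under the Irf4-/- label and from 1.72 to 2.39 under the WT label. The removal of cells with neutrophil UMIs was also chosen after seeing the data. Depth limits S100a4, S100a6 and Anxa2 in the B lineage, at 5 to 91 UMIs.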

Other observations

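In all, 20 cells labelled Irf4-/- and 8 labelled WT held myeloid genes with neither CD3 nor Cd79a. In these few cells S100a4 had 1080 CPM under Irf4-/- and 1245 under WT, S100a6 1574 under Irf4-/- and 2012 under WT, and Lgals1 2006 under Irf4-/- and 1765 under WT. Vim had 1993 under Irf4-/- and 2136 under WT, and Crip1 2474 under Irf4-/- and 3575 under WT.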
